A study of Mus musculus with 9 samples.

Results

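Latent TGF-beta binding proteins and fibrillin microfibrils were followed across 9 RNA sequencing libraries of mouse mammary tumour organoids. The set has 9 genes of 51912 in the count table, chosen by name: the 4 genes of the latent TGF-beta binding protein family (Ltbp1, Ltbp2, Ltbp3, Ltbp4), the surface receptor gene for latent TGF-beta Lrrc32, the fibrillin genes Fbn1 and Fbn2, and the microfibril genes Mfap2 and Thsd4. All 9 were found and all 9 passed the filter on low counts, as did 17289 genes in all. Ltbp1 and Thsd4 had been noted as higher in the comparison described here, so their differences between the groups are a description and no test is offered for them.

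Organoids, small epithelial fragments freshly isolated from tumours, came from FVB/NJ mice. All the mice carried MMTV::PyMT, a viral oncogene under a promoter active in mammary epithelium, and (R26)pCA::mT/mG, a fluorescent reporter of Cre. The 4 WT samples were Cdh1+/+ and the 5 E-cad-KO samples were Cdh1fl/fl, Cdh1 being the gene for E-cadherin, and both groups were adeno-Cre transduced overnight and kept in 3D collagen I with b-FGF2 for 48 h. The labels call the samples biological replicates but give neither the age nor the identity of the mice. Whether each library came from a different mouse is thus not known. A p-value sets the difference between the groups against the spread of these libraries only. The libraries held between 44890302 and 64763645 counted reads each. Levels are in CPM, the counts of a gene scaled to library size with TMM factors.

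TGF-beta is secreted in a latent form, held in a complex with its own propeptide. Most latent TGF-beta binding proteins (LTBPs) are disulfide-bonded to that propeptide and anchor the complex in the extracellular matrix, largely on microfibrils, the fibrillin polymers that also scaffold elastic fibres. Release of the growth factor needs integrins, proteases or mechanical pull, and in mammary tissue TGF-beta restrains epithelial growth and shapes the matrix around ducts and tumours.

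The targeted gene and the cell types in the organoids set the frame for these values. Cdh1 stood at 246.5, 150.3, 201.2 and 159.3 CPM in WT 1 to 4 and at 86.5, 118.3, 85.2, 87.3 and 79.0 CPM in E-cad-KO 1 to 5, lower in every E-cad-KO library (log2 fold change -1.05, SE 0.16, edgeR adjusted p = 0.0275). With 1 library left out Cdh1 was past the threshold in 4 of 9 fits: its adjusted p was 0.0904 without WT 3 and 0.0664, 0.0764, 0.0657 and 0.0644 without E-cad-KO 1, 3, 4 and 5 (edgeR). Without both WT 1 and WT 4 it was 0.0546 (edgeR). The 10 luminal epithelial markers summed to 3512 to 4808 CPM in WT and 4272 to 5426 CPM in E-cad-KO. Of the 10, 7 had an unadjusted p under 0.05, against 16.7% of all tested genes, 5 of them higher and 2 lower in E-cad-KO. Krt8 (fold 1.31, edgeR adjusted p = 0.0530) and Cldn7 (fold 1.35, edgeR adjusted p = 0.0511) did not overlap between the groups, as Ltbp1 and Thsd4 did not, while Elf5 (fold 0.771) and Gata3 (fold 0.862) were on the lower side, and the part of luminal RNA in the values of Ltbp1 and Thsd4 was not tested. Of the 9 markers of T cells and platelets 7 were under 1 CPM in every library, with Cd3e at 0 counts in all of them. Marker RNA of other cell types was uneven between libraries, most of all within WT. The 11 fibroblast markers summed to 993.4, 2054, 2178 and 1800 CPM in WT 1 to 4 and to 1318 to 1811 CPM in E-cad-KO, most of it Postn (926.0 to 1923.6 CPM). Without Postn, left out after its values were seen, the other 10 summed to 67.4, 129.9, 330.2 and 380.6 CPM in WT 1 to 4 and to 136.6 to 231.7 CPM in E-cad-KO. The sum of 10 macrophage markers was 6.66 to 59.5 CPM in WT, highest in WT 4, and 8.02 to 31.0 CPM in E-cad-KO. The sum of 9 myoepithelial markers ran from 2552 CPM in WT 4 to 12480 CPM in WT 1, and from 3677 to 8432 CPM in E-cad-KO. Most of it was Krt14, at 9278.1 CPM in WT 1 and 1874.3 CPM in WT 4. Krt5, Krt17 and Trp63 were also highest in WT 1 and lowest in WT 4. Acta2 (35.0 CPM in WT 1 and 144.0 CPM in WT 4), Myh11, Cnn1, Oxtr and Mylk were instead lowest in WT 1 among WT libraries, so the sum mainly follows the keratins. The 7 mural markers summed to 115.4 to 161.7 CPM in WT and 117.1 to 125.7 CPM in E-cad-KO. Most of this was Notch3 (87.8 CPM in WT 1 and 43.9 CPM in WT 4) and Mcam (33.0 and 83.3 CPM). Rgs5 stood at 1.32 CPM in WT 1 and 17.7 CPM in WT 4, and Cspg4, Des, Abcc9 and Kcnj8 were also higher in WT 4 than in WT 1. The 8 endothelial markers summed to 5.40 to 12.9 CPM in WT and 3.77 to 6.98 CPM in E-cad-KO. Of these 8, 6 were tested, and all 6 were lower in E-cad-KO (median log2 fold change -0.80). An unadjusted edgeR p under 0.05 was held by 2 of the 6, against 16.7% of all tested genes, and 5 of the 8 were under 1 CPM in every library. These sums are given as a description, and no test of them is reported here.

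Among the LTBP genes, Ltbp1 separated the groups with little spread, Ltbp2 was higher on average but varied several-fold between libraries, and Ltbp3 and Ltbp4 overlapped between the groups. Ltbp1 encodes an LTBP that carries latent TGF-beta to the matrix. Its gene (ENSMUSG00000001870) spans GRCm38 chromosome 17, 75005568 to 75392512, with 34 exons in its longest annotated transcript, and no other annotated gene shares its exons. RefSeq (build GRCm38.p6) gives it 2 start sites, far apart, and counts per gene do not tell their transcripts apart. The 250 bases before each start are shown because Ltbp1 and Thsd4 were the members whose groups did not overlap. Capitals mark matches to 5 motifs searched on both strands, all chosen with the sequences in view. They were TGANTCA, which is bound by AP-1 dimers of Fos and Jun proteins, GGAATG, which is bound by the TEAD partners of Yap, CAGACA, which is bound by Smad proteins below the receptors, TGACGTCA, which is bound by CREB family members, and TATAAA, which is the core promoter box.
Ltbp1 upstream start, chr17:75005279-75005528, plus strand: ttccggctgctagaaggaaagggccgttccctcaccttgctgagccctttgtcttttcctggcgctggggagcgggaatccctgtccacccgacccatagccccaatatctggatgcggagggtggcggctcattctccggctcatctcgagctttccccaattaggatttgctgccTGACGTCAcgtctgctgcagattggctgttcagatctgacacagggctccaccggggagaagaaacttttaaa
Ltbp1 internal start, chr17:75178531-75178780, plus strand: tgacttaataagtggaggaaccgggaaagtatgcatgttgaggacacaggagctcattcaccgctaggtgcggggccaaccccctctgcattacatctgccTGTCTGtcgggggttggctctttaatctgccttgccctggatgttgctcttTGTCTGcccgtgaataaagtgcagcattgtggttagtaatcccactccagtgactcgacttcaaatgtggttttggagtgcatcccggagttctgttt
The upstream window held 1 TGACGTCA, a palindrome that reads the same on both strands, 73 to 66 bases before the start, and 1.56% of 32536 RefSeq windows of this length held that motif. The internal window held CAGACA on the minus strand at 2 places, read as TGTCTG on the strand shown, and 17% of the windows held it at least once. The AP-1, TEAD and TATA motifs, with no match in either window, were held by 6.73%, 12.6% and 12.3% of windows. Matches of this kind are letters in a window and say nothing on whether a factor binds there.

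Ltbp1 held 22.5, 22.8, 21.6 and 20.5 CPM in WT 1 to 4. It held 31.3, 28.9, 30.4, 28.7 and 30.6 CPM in E-cad-KO 1 to 5. All 5 E-cad-KO libraries lay above all 4 WT libraries, and neither group spread over more than a few CPM. The means were 21.8 ± 1.03 CPM over the WT libraries (SD, n = 4) against 30.0 ± 1.11 CPM over the E-cad-KO libraries (SD, n = 5), a fold of 1.37 (log2 fold change 0.46, SE 0.06). Its SD within groups, 0.06 on the log2 scale, was smaller than that of all but 3.94% of the tested genes, against a median of 0.19 over all of them. A small spread is part of what made this gene stand out, so this is a description too. Without both WT 1 and WT 4, left out after the data were seen, the log2 fold change of Ltbp1 was 0.44. These libraries had the highest and the lowest myoepithelial sum, and the part of cell types in the Ltbp1 values was not tested.

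Ltbp2 encodes the LTBP that does not bind latent TGF-beta but does bind fibrillin microfibrils. It held 48.1, 94.1, 104.0 and 124.4 CPM in WT 1 to 4 and 200.9, 121.8, 113.6, 148.6 and 171.0 CPM in E-cad-KO 1 to 5. WT 4 lay above E-cad-KO 2 and 3, so the groups overlapped, and the highest library was 4.18 times the lowest. It gave a log2 fold change of 0.71 (SE 0.27, edgeR adjusted p = 0.233), with all 5 E-cad-KO libraries above the WT median. Without WT 1, the WT library with the least Ltbp2, it was 0.50 (edgeR adjusted p = 0.239). DESeq2, an alternative count model, put Ltbp2 past the threshold at the same size (0.71, adjusted p = 0.0422), and over the alternatives tried its adjusted p ran from 0.0422 to 0.494. Calls by DESeq2 were more common in general: it called 8.46% of the genes it tested, against 1.41% by edgeR. Of the exon bases of Ltbp2, 9.34% are shared with D030025P21Rik on the other strand. The strand setting of the counting is not given in the sources used here, so how reads on the shared bases were counted is not known.

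Ltbp3, an LTBP needed for TGF-beta function in bone and teeth, was the steadiest of the others. It held 71.1, 64.1, 77.0 and 79.0 CPM in WT 1 to 4 and 87.3, 88.3, 76.9, 68.2 and 70.8 CPM in E-cad-KO 1 to 5. The groups overlapped over most of their range, with a log2 fold change of 0.11 (SE 0.09, edgeR adjusted p = 0.635). Ltbp4, which also takes part in elastic fibre assembly, was low in every library. It held 8.56, 5.05, 7.38 and 5.48 CPM in WT 1 to 4 and 7.02, 7.33, 8.25, 4.34 and 5.32 CPM in E-cad-KO 1 to 5. The groups covered the same range, and its log2 fold change of -0.04 (SE 0.22, edgeR adjusted p = 0.959) turned to 0.12 without WT 1.

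Lrrc32 encodes GARP, which holds latent TGF-beta on the cell surface and is best known from regulatory T cells and platelets. It held 43.2, 44.2, 51.4 and 20.8 CPM in WT 1 to 4 and 36.8, 37.9, 50.3, 29.0 and 25.9 CPM in E-cad-KO 1 to 5. WT 4 was the lowest library of all and WT 3 the highest, so the spread within WT covered that between the groups (log2 fold change -0.15, SE 0.27, edgeR adjusted p = 0.844). Without WT 4 the log2 fold change was -0.36 (edgeR adjusted p = 0.362). The T cell markers beside it were at or near 0, with Cd3e at 0 counts in all libraries and Foxp3 at 0 counts in 8 of them and 2 counts in WT 3. Of the platelet markers, Itga2b held 1.94 to 3.22 CPM, Pf4 0.237 to 1.37 CPM and Gp9 at most 0.183 CPM, and all 9 markers together summed to 2.53 to 4.49 CPM. The myoepithelial and luminal marker sums were lowest in WT 4 as well. Highest there were the macrophage, endothelial and mural sums, the sum for T cells and platelets, and the fibroblast sum without Postn. The myoepithelial sum was 12480 CPM in WT 1, its highest, and 5733 CPM in WT 3, where Lrrc32 was highest. The part of these cell types in the Lrrc32 values was not tested.

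**Figure D1:**
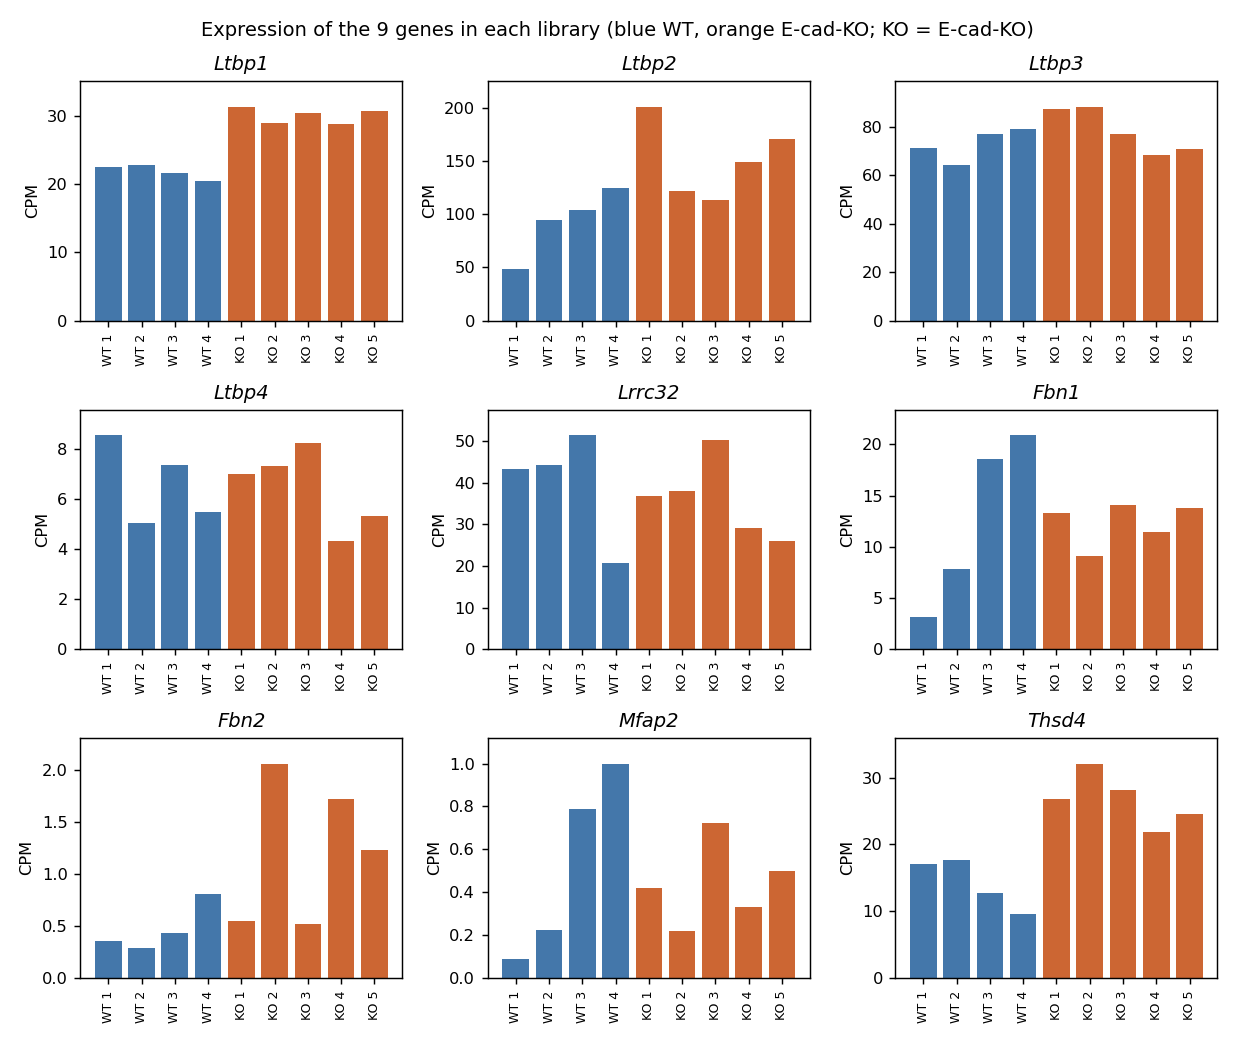
Bars give the CPM of each of the 9 genes in each library (x axis: WT 1 to 4 in blue, E-cad-KO 1 to 5 in orange; y axis: CPM from 0, scaled per gene). All 5 E-cad-KO bars exceed all 4 WT bars for Ltbp1 and Thsd4, and the groups overlap for the other 7 genes.

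Of the fibrillin genes, Fbn1 differed more among WT libraries than between the groups, and Fbn2 was counted in few reads. Fbn1, the main fibrillin of microfibrils and the gene altered in Marfan syndrome, held 3.19, 7.81, 18.6 and 20.9 CPM in WT 1 to 4. It held 13.3, 9.11, 14.1, 11.4 and 13.8 CPM in E-cad-KO 1 to 5. Both the lowest values and the highest ones were in WT, and all of E-cad-KO lay between them. It gave a log2 fold change of -0.03 (SE 0.46, edgeR adjusted p = 0.984), and it ran from -0.35 without WT 1 to 0.32 without WT 4. Fbn1 was lowest in WT 1 and highest in WT 4, as was the fibroblast marker sum without Postn, while the sum with Postn was lowest in WT 1 and highest in WT 3, and the part of fibroblast RNA in the Fbn1 values was not tested. In bulk samples, fewer cells of a type and less RNA per cell cannot be told apart. Of the exon bases of Fbn1, 20.1% are shared with Gm9913 on the other strand.

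Fbn2, the fibrillin of developing tissues, had 18 to 44 counts in the WT libraries and 23 to 122 counts in the E-cad-KO libraries. It held 0.357, 0.287, 0.427 and 0.803 CPM in WT 1 to 4 and 0.544, 2.06, 0.520, 1.72 and 1.23 CPM in E-cad-KO 1 to 5. E-cad-KO 2, 4 and 5 lay above every WT library, and E-cad-KO 1 and 3 lay below WT 4. The log2 fold change of 1.38 had the largest size of the 9 genes but also a wide error (SE 0.49, edgeR adjusted p = 0.187). Of its exon bases 0.98% are shared with Gm26507 on the other strand.

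Of the microfibril-associated genes, Mfap2 differed most within WT, while Thsd4 separated the groups. Mfap2, which encodes the small glycoprotein MAGP-1 on the surface of microfibrils, had 5 to 55 counts a library. It held 0.0849, 0.223, 0.787 and 1.0 CPM in WT 1 to 4 and 0.421, 0.220, 0.723, 0.328 and 0.497 CPM in E-cad-KO 1 to 5. WT 1 was lowest and WT 4 highest, the same libraries as for Fbn1 and the fibroblast marker sum without Postn, and the E-cad-KO libraries lay between them. It gave a log2 fold change of -0.26 (SE 0.62, edgeR adjusted p = 0.883), and it ran from -0.61 without WT 1 to 0.25 without WT 4.

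Thsd4 encodes ADAMTSL6, a secreted protein without protease activity that binds fibrillin-1 and promotes the assembly of microfibrils. Its gene (ENSMUSG00000032289) spans GRCm38 chromosome 9, 59966931 to 60522046, on the minus strand, and no other annotated gene shares its exons. RefSeq gives it 2 start sites as well, and both windows are shown for comparison with those of Ltbp1. Both lie inside the annotated span, away from its upstream end at 60522046, so upstream names only the first of these 2 starts.
Thsd4 upstream start, chr9:60511036-60511285, minus strand: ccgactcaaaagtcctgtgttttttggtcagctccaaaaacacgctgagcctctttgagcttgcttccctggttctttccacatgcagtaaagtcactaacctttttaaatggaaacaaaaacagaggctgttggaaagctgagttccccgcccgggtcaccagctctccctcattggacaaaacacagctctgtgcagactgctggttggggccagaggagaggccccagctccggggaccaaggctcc
Thsd4 internal start, chr9:60141221-60141470, minus strand: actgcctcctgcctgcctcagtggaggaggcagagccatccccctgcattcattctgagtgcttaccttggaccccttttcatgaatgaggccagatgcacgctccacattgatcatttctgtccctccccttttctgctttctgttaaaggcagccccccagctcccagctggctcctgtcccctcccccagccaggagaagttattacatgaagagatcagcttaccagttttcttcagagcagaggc
Neither window held any of the 5 motifs, so the 4 windows shared none of them, which says only that these letters are not in these stretches. Of the other members, 5 had a RefSeq window, and Mfap2 had matches to TEAD and SMAD motifs in 1 of its 2 windows.

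Thsd4 held 17, 17.6, 12.7 and 9.49 CPM in WT 1 to 4. It held 26.8, 32.1, 28.1, 21.9 and 24.5 CPM in E-cad-KO 1 to 5. The lowest E-cad-KO library lay above the highest WT library, but both groups were spread out, and WT 4 stood lowest. The means were 14.2 ± 3.82 CPM over the WT libraries (SD, n = 4) against 26.7 ± 3.82 CPM over the E-cad-KO libraries (SD, n = 5), a fold of 1.88 (log2 fold change 0.91, SE 0.18). Without WT 4 the log2 fold change was 0.76, and without both WT 1 and WT 4 it was 0.82. WT 4 also had the highest macrophage sum and the lowest myoepithelial and luminal sums, whose part in the low Thsd4 value there was not tested.

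Read together, 2 of the 9 genes, Ltbp1 and Thsd4, were called in the edgeR fit across all genes (adjusted p under 0.05), both higher in E-cad-KO, and 0.908% of the tested genes were called higher. Groups did not overlap for the same 2 genes, against 4.28% of the tested genes that were higher in E-cad-KO without overlap. Since these calls are what named the 2 genes, nothing is read from those counts. Called lower were 0 members and 0.503% of the tested genes. At an unadjusted p under 0.05, 4 of the 9 members (Ltbp1, Thsd4, Ltbp2 and Fbn2) were higher and 0 lower, against 16.7% of all tested genes in either direction. Of these 4, Ltbp1 and Thsd4 were chosen on this comparison, so nothing is read from this count either. Of the 9 log2 fold changes 5 were positive, and their median was 0.11, against -0.01 over all tested genes, of which 48.0% were positive. Within groups, the SD on the log2 scale ran from 0.06 for Ltbp1 to 1.05 for Mfap2. Ltbp2 (SD 0.47), Lrrc32 (SD 0.48) and Fbn1 (SD 0.85) varied more than 98.0%, 97.8% and 98.2% of the genes within 1.5-fold of their level. For Thsd4 (SD 0.31) this share was 90.8%. With each library left out in turn, the log2 fold change of Ltbp1 ran from 0.43 to 0.48 and that of Thsd4 from 0.76 to 1.03. Ltbp1 stayed called in 8 of these 9 fits and Thsd4 in 1. Across all genes DESeq2 called 8.46% and limma-voom 2.94%.

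**Figure D2:**
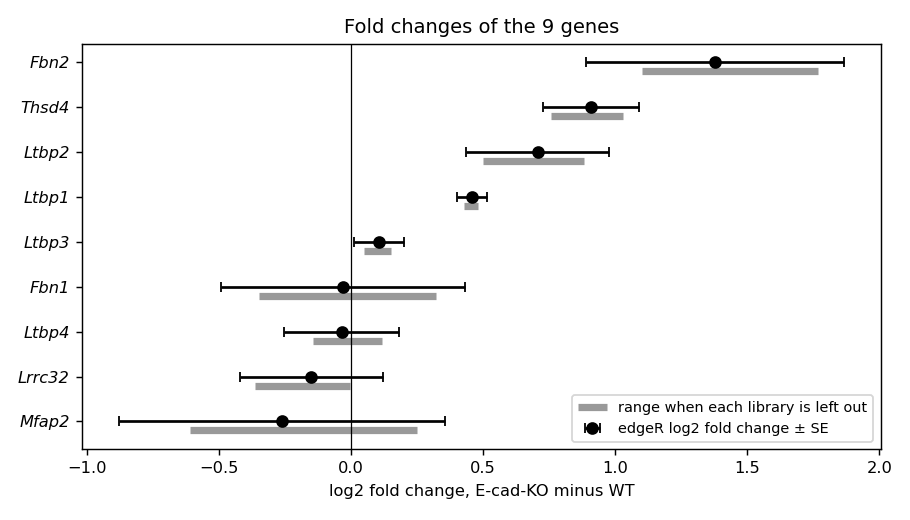
Points give each gene's edgeR log2 fold change (x axis, E-cad-KO minus WT) with its SE, and grey bars the range when each library is left out. The bar for Ltbp1 runs from 0.43 to 0.48, while those of Fbn1, Ltbp4 and Mfap2 cross 0.

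Divided by transcript length, so that genes can be compared, the levels covered more than 2 orders of magnitude. Ltbp2 stood highest at 13.7 ± 4.77 CPM per kilobase of its longest transcript over the WT libraries (SD, n = 4) and 22.3 ± 5.30 over the E-cad-KO ones (SD, n = 5). Ltbp3 followed at 12.7 ± 1.17 and 13.7 ± 1.61 CPM per kilobase, Lrrc32 at 8.72 ± 2.90 and 7.86 ± 2.08, and Ltbp1 at 3.27 ± 0.155 and 4.50 ± 0.167. Thsd4 came next at 1.61 ± 0.434 and 3.03 ± 0.434 CPM per kilobase, then Ltbp4 at 1.23 ± 0.305 and 1.20 ± 0.295, and Fbn1 at 1.05 ± 0.709 and 1.03 ± 0.174. Mfap2 at 0.489 ± 0.411 and 0.408 ± 0.177 CPM per kilobase and Fbn2 at 0.0424 ± 0.0209 and 0.110 ± 0.0625 closed the order, which by group means was the same in WT and E-cad-KO. Neighbours overlapped in their ranges over WT libraries for Ltbp2 and Ltbp3, Ltbp3 and Lrrc32, Thsd4 and Ltbp4, Ltbp4 and Fbn1, and Fbn1 and Mfap2. In E-cad-KO the only neighbours that overlapped were Ltbp4 and Fbn1. With the merged length of all annotated exons in place of the longest transcript, these 2 changed places and the other 7 genes kept theirs.

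**Figure D3:**
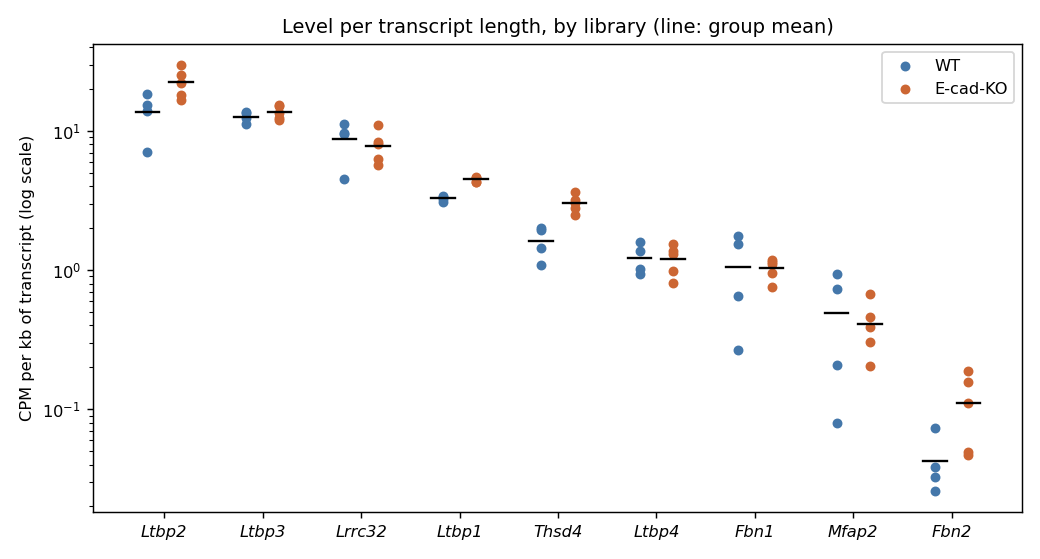
Points give CPM per kilobase of transcript in each library (y axis, log scale) for the 9 genes in order of their mean, with group means as lines. Ltbp2 and Ltbp3 stand at the top and Fbn2 at the bottom in both groups.

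The 4 LTBP genes summed to 24.5, 29.4, 33.4 and 36.2 CPM per kilobase in WT 1 to 4 and 50.9, 39.1, 36.3, 39.0 and 43.2 in E-cad-KO 1 to 5. The lowest E-cad-KO sum was thus next to the highest WT sum. Ltbp1 made up 10.9 ± 2.32% of this sum over the WT libraries (SD, n = 4) and 10.9 ± 1.19% over the E-cad-KO ones (SD, n = 5), and these shares overlapped between the groups while its levels did not. Ltbp2 made up 43.2 ± 9.68% in WT and 53.1 ± 6.39% in E-cad-KO, with ranges of 29.0 to 50.7% and 46.0 to 58.5% that overlapped. The share of Ltbp3 was 41.7 ± 6.07% in WT and 33.1 ± 4.79% in E-cad-KO, and that of Ltbp4 4.15 ± 1.66% and 2.92 ± 0.903%.

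**Figure D4:**
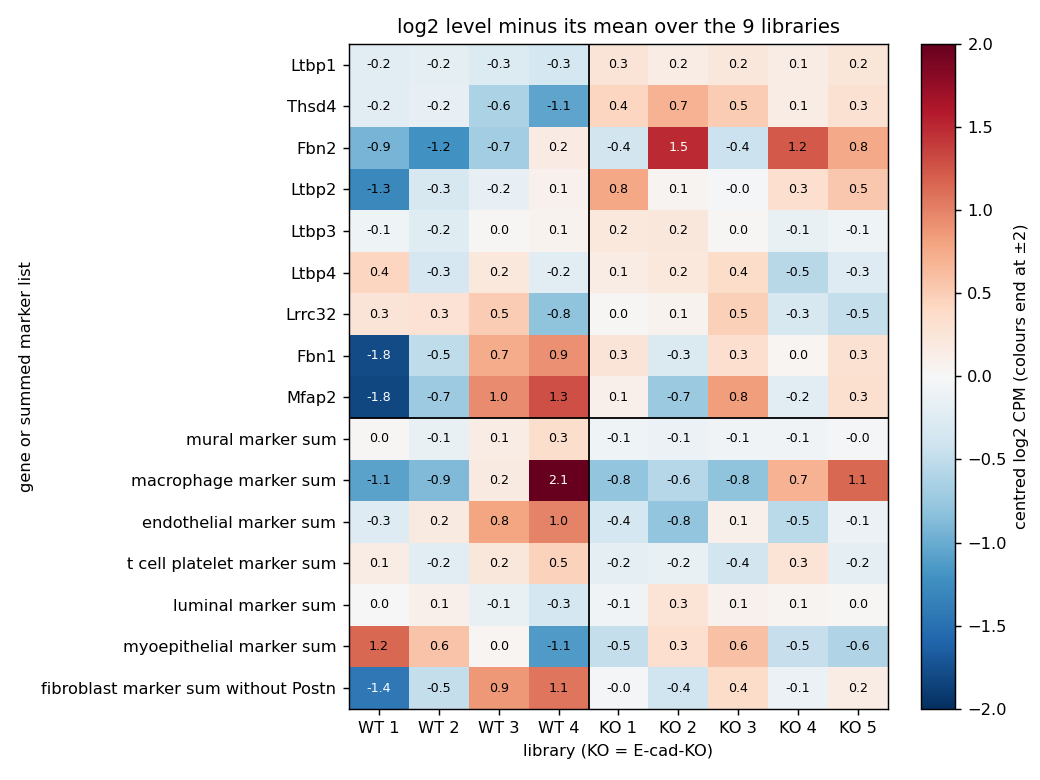
Each cell gives a log2 level minus its mean over the 9 libraries (columns: WT 1 to 4, then E-cad-KO 1 to 5; rows: the 9 genes above the line, summed cell type markers below it). Fbn1, Mfap2 and the fibroblast sum without Postn are lowest in WT 1 and highest in WT 4, while Ltbp1 is below its mean in all 4 WT libraries and above it in all 5 E-cad-KO libraries.

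Likeness to Ltbp1 and Thsd4 was measured as the root mean square difference in centred log2 CPM over the 9 libraries, among 10757 other genes with a mean of at least 5 CPM. The genes nearest to Ltbp1 were Dusp18, a dual-specificity phosphatase gene (0.03), Phc2, a Polycomb gene (0.06), and Lmna, the gene of nuclear lamins A and C (0.07), against a median of 0.26 over all candidates. Their log2 fold changes were 0.46 for Dusp18, 0.38 for Phc2 and 0.41 for Lmna. Likeness was taken over the same libraries, WT and E-cad-KO together, so genes near Ltbp1 or Thsd4 share their difference between the groups and their pattern within them by the way they were chosen. Dusp18 held 14.3 to 14.7 CPM in WT and 19.18 to 20.99 CPM in E-cad-KO. Nearest to Thsd4 were Ccdc141 (0.14), the lymphatic growth factor gene Vegfc (0.14) and the sulfotransferase gene Gal3st1 (0.17), against a median of 0.55. Ccdc141 held 51.6, 49.2, 33.6 and 24.8 CPM in WT 1 to 4 and 59.5 to 78.5 CPM in E-cad-KO. Ltbp1 and Thsd4 differed from each other by 0.34.

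The other genes of the pathway were counted from lists, none of them with a gene called by edgeR. Over all genes tested, edgeR called 1.41% in either direction, and 16.7% had an unadjusted p under 0.05. DESeq2 called 8.46% of the genes it tested and limma-voom 2.94%, the shares to set beside their counts in the lists that follow. Of 21 other microfibril and elastic fibre genes, 11 had a positive log2 fold change (median 0.01), and 2 had an unadjusted p under 0.05. DESeq2 called 2 of them and limma-voom 1. Adamtsl4, a relative of Thsd4 that also binds fibrillin, had the smallest p: it held 6.50, 5.03, 4.91 and 5.82 CPM in WT 1 to 4 and 9.17, 8.89, 9.47, 7.76 and 7.12 CPM in E-cad-KO 1 to 5. The groups did not overlap, and its log2 fold change of 0.61 (SE 0.13) missed the threshold (edgeR adjusted p = 0.0511). Fibulin genes Fbln2 and Fbln5, for elastic fibre proteins, stood at 0.41 (SE 0.13, edgeR adjusted p = 0.152) and 0.41 (SE 0.20, edgeR adjusted p = 0.349), and Adamts10, a fibrillin-binding protease gene, at -0.39 (SE 0.20, edgeR adjusted p = 0.371).

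Of 20 genes of latent TGF-beta and its activation, 15 had a positive log2 fold change (median 0.22) and 5 had an unadjusted p under 0.05. None was called by DESeq2 or limma-voom. Of the growth factors that LTBPs carry, Tgfb1 stood at 13.4 ± 1.77 CPM over the WT libraries (SD, n = 4) against 15.8 ± 2.39 CPM over the E-cad-KO libraries (SD, n = 5), Tgfb2 at 22.6 ± 1.89 and 19.4 ± 2.30 CPM, and Tgfb3 at 149 ± 36.6 and 142 ± 17.1 CPM. None of these was called (edgeR adjusted p = 0.393, 0.284 and 0.869). The integrin genes Itgb5 (0.30, SE 0.11), Itgav (0.23, SE 0.09) and Itgb1 (0.17, SE 0.08), whose products bind the propeptide or its partners, and Mmp14 (0.31, SE 0.13), a membrane protease gene, had the smallest p-values of the list (edgeR adjusted p = 0.205 to 0.278).

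Of 10 receptor and Smad genes, 7 had a positive log2 fold change (median 0.22) and 5 an unadjusted p under 0.05, with 2 called by DESeq2 and 1 by limma-voom. Smad7, an inhibitor induced by TGF-beta, held 11.4 to 13.4 CPM in WT and 13.6 to 17.9 CPM in E-cad-KO, next to each other without overlap (log2 fold change 0.39, SE 0.09, edgeR adjusted p = 0.0673). Smad3, a signal transducer, did not overlap either (0.26, SE 0.07, edgeR adjusted p = 0.0909). Tgfbr2 and Smad4 stood at 0.22 (edgeR adjusted p = 0.155) and 0.21 (edgeR adjusted p = 0.234).

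Fibrillins also bind the propeptides of bone morphogenetic proteins. Of 11 such ligand genes and relatives, 9 were tested, Bmp10 and Mstn having 0 counts in every library. Of these, 5 had a positive log2 fold change (median 0.03) and 3 an unadjusted p under 0.05, with 2 called by DESeq2 and 1 by limma-voom. Bmp2 held 5.18, 10.2, 8.35 and 7.41 CPM in WT 1 to 4 and 17.1, 10.3, 16.4, 15.2 and 13.2 CPM in E-cad-KO 1 to 5, just without overlap (log2 fold change 0.89, SE 0.20, edgeR adjusted p = 0.0613). Bmp4 stood at 0.90 (SE 0.23, edgeR adjusted p = 0.0834) and Bmp7 at -0.38 (SE 0.21, edgeR adjusted p = 0.404), and without WT 4 Bmp4 was called (edgeR adjusted p = 0.0349). Bmp5 was at 30.7 CPM in WT 4 and at most 1.23 CPM in the other libraries, so its log2 fold change of -3.76 (SE 1.45, edgeR adjusted p = 0.234) became 0.04 without that library. Reads on its exons are uncertain too, since 46.7% of their bases are shared with Gm26903 on the other strand, and smaller parts of the exons of Bmp4 (3.96%), Itgav (5.90%), Tgfb2 (2.14%) and Tgfb3 (7.60% and 4.82%, with a pair of genes) are shared in the same way.

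**Figure D5:**
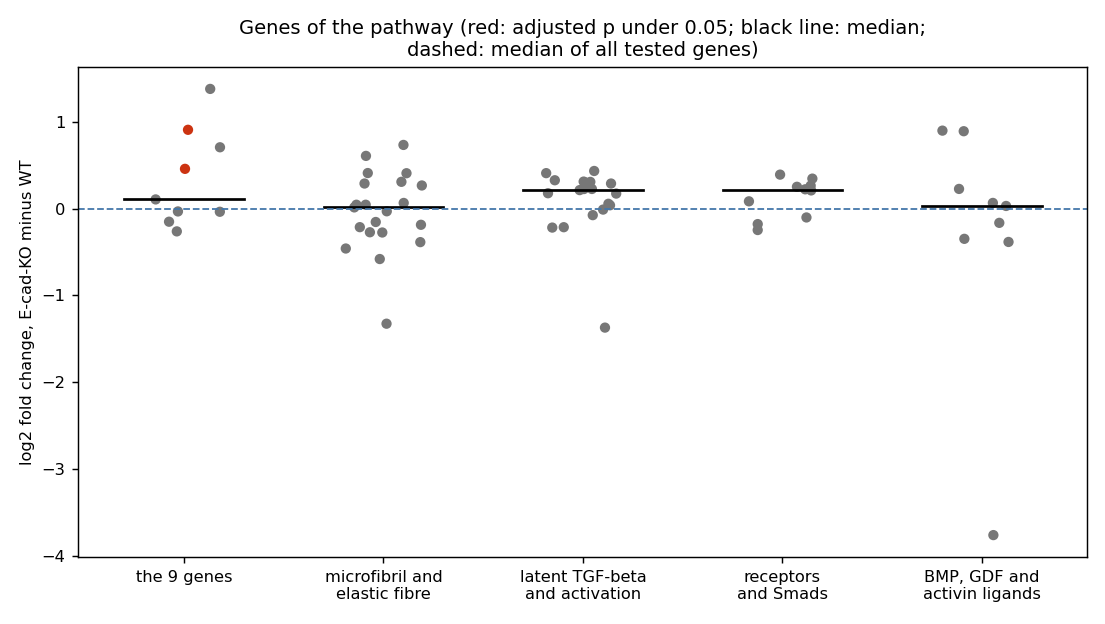
Points give the edgeR log2 fold change (y axis, E-cad-KO minus WT) of each tested gene in the 9-gene set and the 4 lists (x axis), red where the adjusted p was under 0.05, with list medians as black lines and the median of all tested genes dashed. The 2 red points are Ltbp1 and Thsd4, and the list medians lie between 0.01 and 0.22.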

How the data were processed

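RNA of 4 WT and 5 E-cad-KO organoid samples was sequenced from flash-frozen gels with a stranded TruSeq mRNA kit, per the labels' protocols. The deposited values are raw counts per Ensembl gene, not normalised. Bowtie2, TopHat2 and HTSeq were used with GRCm38, per the submitters' processing notes. For versions, annotation release and strand setting: not given in the sources used here. Symbols were found for 51633 of 51912 genes, and GENCODE M21 (GRCm38) supplied positions, lengths and shared exon bases. No 2 libraries of the same group agreed within sampling noise (smallest chi-square per degree of freedom 13.7).

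Genes passing filterByExpr (17289) were tested in edgeR 4.0.16 (R 4.3.3) by its quasi-likelihood method, with TMM factors, robust dispersions and a model of group alone. Benjamini-Hochberg values under 0.05 are called. All tests are two-sided, and the SE is the log2 fold change divided by the square root of F. The routines were tested on simulated counts. Alternatives were other size factors and filters, DESeq2 1.42.0, limma-voom with quality weights (limma 3.58.1), a replicate block and each library left out. Wherever limma-voom is named, the fit gave each library such a weight. Leaving out both WT 1 and WT 4 was chosen after seeing the data. The members and lists were chosen with earlier results of these data known. The genes named are the members, Cdh1, the 4 genes with the smallest p of each list, and marker sums. The 3 genes nearest to Ltbp1 and to Thsd4 are named too, leaving out predicted genes and RIKEN clones. Others were chosen after their values were seen: Tgfb1, Tgfb2, Tgfb3, and the luminal, myoepithelial, mural, T cell and platelet markers given by name.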

Additional observations from a re-analysis of the deposited data

Results flagged for a closer look

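The test for a library far from the rest of its group was run on 68 groups of values, and chance gives about 1 such library in 20 groups; 3 were found, none of them in the 9 genes. Bmp5 in WT 4 (30.7 CPM, the nearest WT library at 1.23 CPM) lay apart by 0.965 of the range of WT. Itgb1 in E-cad-KO 5 (1123 CPM, the nearest at 1029 CPM) lay apart by 0.851 of the range of E-cad-KO. Cdh1 in E-cad-KO 2 (118.3 CPM, the nearest at 87.3 CPM) lay apart by 0.790 of the range of E-cad-KO. Ltbp1 was 28.9 CPM in that library, inside the range of the other E-cad-KO libraries, and Thsd4 was 32.1 CPM, the highest of them.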

How the results depend on the processing

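Ltbp1 ran from 0.43 to 0.48 and Thsd4 from 0.76 to 1.03 over the 17 alternatives (log2 fold change). The 2 members called became 1 (Ltbp1) with no filter beyond 1 count and without both WT 1 and WT 4, and 0 to 2 with 1 library left out: Ltbp1 was lost without WT 3, and Thsd4 was lost in each of these fits but that without WT 4. Both genes were chosen on this comparison, so these counts describe the fits and lend the genes no support. DESeq2 also called Ltbp2 (0.71, adjusted p = 0.0422). Of all tested genes, 244 were called (157 higher, 87 lower). DESeq2 called 1206 (714 and 492), limma-voom 509 (294 and 215), and the fit without both WT 1 and WT 4 79 (48 and 31). With 1 library left out it was 9 to 334 (8 to 193 and 1 to 141). Called lower were 151 with upper-quartile factors, against 123 higher, and 135 with the filter of 1 CPM in 4 libraries. Counts called in the lists, 0 with edgeR as above, became 1, 2 and 1 for microfibril and elastic fibre genes with the 1 CPM filter, DESeq2 and limma-voom, 2 and 1 for receptors and Smads with DESeq2 and limma-voom, and 2 and 1 for the ligands with the same tools. With 1 library left out the ligands had 0 to 1. Signs turned for genes that were never called: Ltbp4 (0.0565 without both WT 1 and WT 4, -0.15 to 0.12 with 1 library left out), Fbn1 (0.20 with limma-voom, -0.35 to 0.32), Mfap2 (0.11 with limma-voom, -0.61 to 0.25) and Bmp5 (-4.16 to 0.0421). The cause was not tested. The labels do not say whether the replicate numbers in the titles mark pairs. Deviations of same-numbered libraries from their group means correlated at -0.32, 0.23, -0.03 and 0.28, and WT 1 went best with E-cad-KO 2 (0.53). These correlations can also follow the mix of cell types in each library, so they do not decide whether libraries were paired. With the replicate block 0 genes were called, 0 of them higher, 0 lower and 0 members. Cdh1 was not called either (adjusted p = 0.171). Ltbp1 stood at 0.45, Thsd4 at 0.97, Ltbp4 at 0.0203 and Fbn1 at 0.20. For Mfap2 and Fbn2, with at most 55 and 122 counts a library, depth limits what could be seen.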
